A study of Mus musculus with 12 samples.

Results

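The genes described here are 37 genes of ribosome biogenesis and RNA polymerase I, chosen by name and matched to the gene symbols of a table of 50643 genes. All 37 were listed, and all 37 had enough counts to be among the 16694 genes tested. RNA was measured in natural killer (NK) cells from the spleens of C57BL/6 mice, obtained by negative isolation, which depletes other cells instead of capturing NK cells. The 4 groups of 3 libraries were Mirc11-/- challenged with Listeria, Mirc11-/- unchallenged, wild-type challenged and wild-type unchallenged. Mirc11 is the cluster of the microRNAs miR-23a, miR-27a and miR-24-2. The labels give the deletion as Mirc11-/- with no Cre or promoter, and they do not say which cells lacked the cluster. The sources used here do not state how the challenge was given, how long it lasted or how old the mice were. Libraries of a group are named biological replicates in the design, but no source ties each to its own mouse, so p-values measure only the spread between these libraries, which may be technical.

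Ribosomes are assembled in the nucleolus, where RNA polymerase I transcribes the ribosomal RNA precursor. Small nucleolar RNAs (snoRNAs) of the box C/D class guide its methylation and those of the box H/ACA class guide its pseudouridylation, each bound to a fixed set of proteins. The small subunit processome and the assembly factors of the large subunit then fold, cut and package the RNA. Lymphocytes that leave rest to grow and divide are known to enlarge their nucleoli, and the transcription factor MYC, which binds the E-box CACGTG with its partner MAX, is known to drive many of these genes.

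The microRNAs encoded by the deleted cluster and the E-boxes in member promoters are shown as the sequences that the genotype and the promoter comparisons refer to. Mature microRNAs are from RefSeq (GRCm38.p6), 5′ to 3′, with bases 2 to 8, the seed that pairs with targets, in capitals. They lie on the plus strand at chr8:84208563-84208583, chr8:84208727-84208747 and chr8:84208875-84208896, and all 3 seeds differ.
mmu-miR-23a-3p: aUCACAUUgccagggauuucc
mmu-miR-27a-3p: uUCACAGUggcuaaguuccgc
mmu-miR-24-3p: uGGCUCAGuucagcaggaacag

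A promoter window of RefSeq (GRCm38.p6), 250 bases before to 50 after a gene's start, was held for 33 of the 37 members, the others being Fbl, Npm1, Rrp12 and Bop1. The E-box CACGTG, a palindrome read on both strands at once, stood in a window of 8 of these 33 members (24.2%), against 1245 of 11133 tested genes with a window (11.2%). A match is a description of the letters and not of a bound site. The 9 matches are given with up to 12 bases on either side, on the strand of the gene and with the E-box in capitals. Those of Nop2 and Rrn3 lie before the gene start, at bases -60, -215 and -48. The other matches lie after it, at bases 3 (Pes1), 18 (Wdr43), 25 (Tsr1), 35 (Grwd1), 38 (Utp20) and 41 (Mybbp1a), so they fall in transcribed sequence.
Nop2 (chr6:125131811-125131840, plus strand): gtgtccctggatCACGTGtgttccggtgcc
Rrn3, distal (chr16:13780472-13780501, plus strand): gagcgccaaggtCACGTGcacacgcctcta
Rrn3, proximal (chr16:13780639-13780668, plus strand): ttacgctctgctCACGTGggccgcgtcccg
Pes1 (chr11:3963965-3963994, plus strand): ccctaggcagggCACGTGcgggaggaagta
Wdr43 (chr17:71616220-71616249, plus strand): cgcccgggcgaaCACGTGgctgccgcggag
Tsr1 (chr11:74898092-74898121, plus strand): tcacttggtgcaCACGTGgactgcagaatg
Grwd1 (chr7:45830740-45830767, minus strand): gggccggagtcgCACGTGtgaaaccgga
Utp20 (chr10:88826765-88826789, minus strand): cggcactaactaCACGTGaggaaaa
Mybbp1a (chr11:72441355-72441376, plus strand): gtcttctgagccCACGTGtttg

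Library totals ran from 17624530 to 23665679 counts, and the lowest library value of any member was 12.2 CPM, the counts scaled to 1 common column total in every library, so no member was limited by depth. The 10 NK markers, such as Gzma, Prf1, Nkg7 and Ncr1, were detected in every group with summed levels of 6544 to 6986 CPM in challenged Mirc11-/-, 8936 to 9014 CPM in unchallenged Mirc11-/-, 5067 to 5238 CPM in challenged wild-type and 8421 to 9462 CPM in unchallenged wild-type libraries. The targeted microRNA genes had 0 counts in all 12 libraries and so check nothing about the labels. Gm26532, a long noncoding RNA beside the cluster, stood at 0.887, 0.984 and 2.7 CPM in challenged and at 0.113, 0.498 and 0.149 CPM in unchallenged Mirc11-/- libraries, against 2.34 to 4.27 CPM in challenged and 2.35 to 4.88 CPM in unchallenged wild-type libraries. Challenged Mirc11-/- replicate 3 was therefore inside the wild-type range, against its label. A second noncoding gene at the cluster, Gm37352, went with the labels, at 29.7 to 47.2 CPM in challenged and 58.2 to 61.4 CPM in unchallenged Mirc11-/- libraries, against 3.33 to 6.75 CPM in challenged and 3.06 to 6.76 CPM in unchallenged wild-type libraries, with challenged Mirc11-/- replicate 3 the lowest of the Mirc11-/- libraries. The labels give no sex, but the X-linked Xist and the Y-linked Ddx3y, Kdm5d, Eif2s3y and Uty were present together in all 3 challenged Mirc11-/- libraries (Xist 526, 694 and 1027 CPM, Ddx3y 44.7, 80.5 and 44.1 CPM) and in unchallenged wild-type replicate 4 (1198 and 34.6 CPM). Unchallenged Mirc11-/- libraries held Ddx3y at 83.6 to 135 CPM and Xist at no more than 1.08 CPM, whereas the other wild-type libraries held Xist at 1154 to 2025 CPM and Ddx3y at no more than 0.133 CPM. Sex-linked RNA thus went with genotype, and within Mirc11-/- with challenge, and cannot be told apart from either. Counts of members are given below also without challenged Mirc11-/- replicate 3 and unchallenged wild-type replicate 4.

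The members as a group stood higher after challenge in both genotypes. Their CPM summed to 3720 ± 45.5 in challenged Mirc11-/-, 2741 ± 30.5 in unchallenged Mirc11-/-, 4347 ± 162 in challenged wild-type and 3019 ± 107 in unchallenged wild-type libraries (SD, n = 3 each). The ratio of challenged to unchallenged was 1.36 in Mirc11-/- and 1.44 in wild-type by these column totals. With the TMM-scaled library sizes used for the tests below, the sums averaged 3659, 2713, 4567 and 2952 CPM in the same order of groups. The rise in wild-type is wider on that scale. By role, the ratio from column totals was widest for the abundant nucleolar proteins, at 1.52 in Mirc11-/- and 1.63 in wild-type, which made up 42.7% of the summed CPM in challenged Mirc11-/- libraries. The ratio was 1.07 in both genotypes for RNA polymerase I and its factors, a sum in which Ubtf weighs heavily. Ubtf, which did not rise, averaged 213, 218, 185 and 205 CPM in the same order of groups. The whole role summed to 496, 462, 495 and 462 CPM, so this ratio does not describe its other genes. In a bulk sample, fewer cells of a type and less RNA per cell cannot be told apart.

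**Figure D1:**
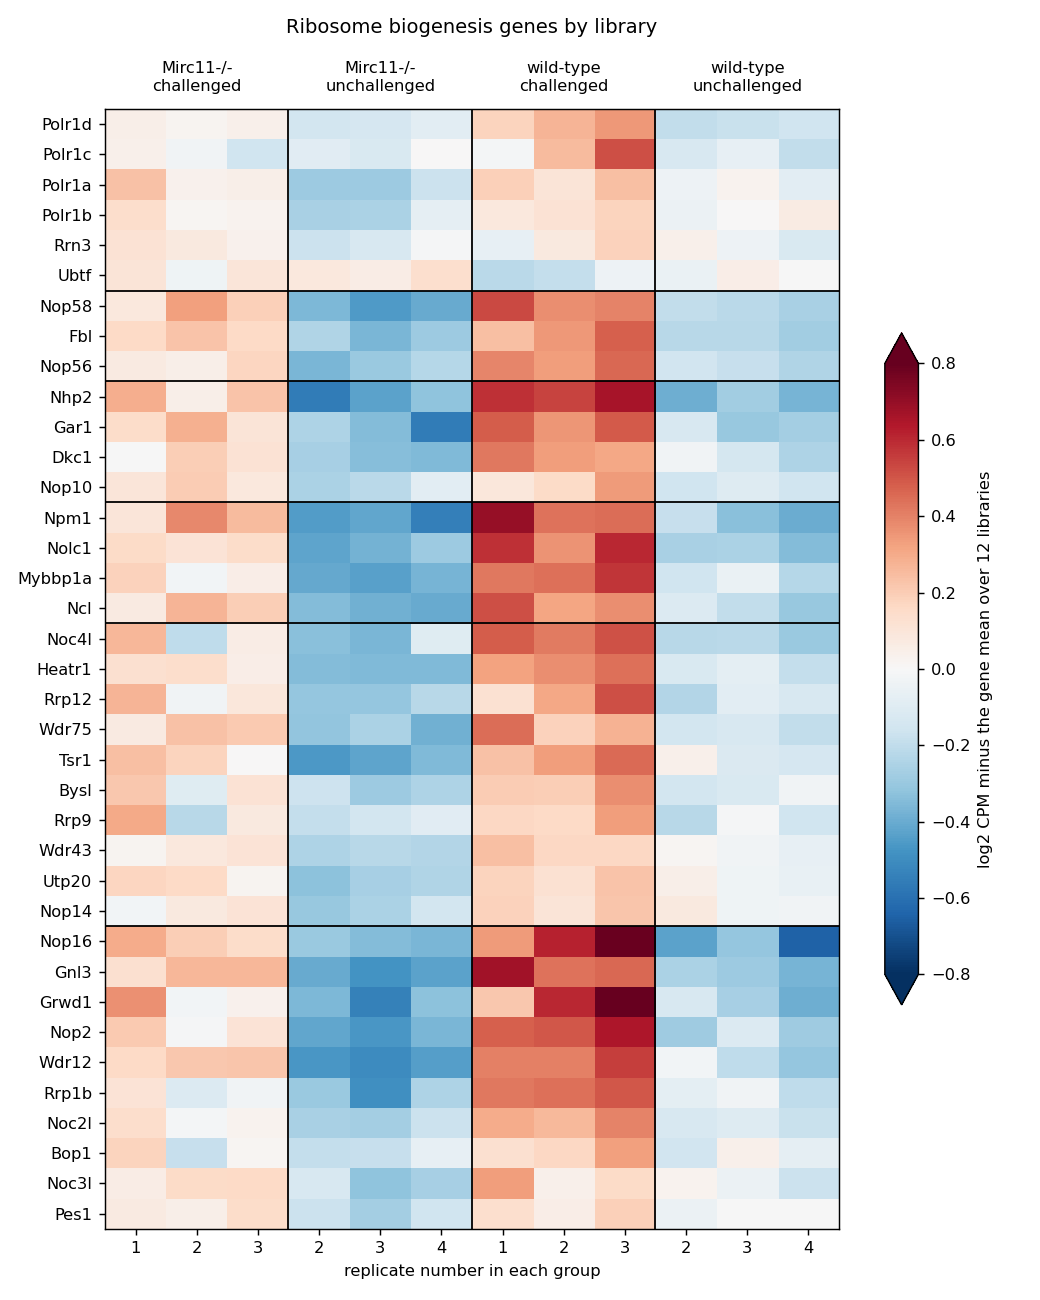
Level of each of the 37 genes (rows, grouped by role from RNA polymerase I at the top to large subunit assembly at the bottom) in each of the 12 libraries (columns), as log2 CPM minus the gene's mean over the libraries. Challenged wild-type columns are the reddest and unchallenged Mirc11-/- columns the bluest for most rows. Ubtf is higher in all 3 challenged Mirc11-/- libraries than in any challenged wild-type one, narrowly (199.7 against 199 CPM) and with no call by the fit.

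Tests were quasi-likelihood F tests (edgeR, robust) across all 16694 genes, and a gene is called below where its Benjamini-Hochberg adjusted p was below 0.05. Log2 fold changes are from that fit, with TMM-scaled library sizes, and are given with their standard error. After challenge in Mirc11-/-, 31 of 37 members rose and 6 did not pass, where 27% of all tested genes were called, 15.6% as higher and 11.5% as lower. The 6 were Polr1c, Polr1d, Rrn3, Ubtf, Rrp9 and Bop1. The median log2 fold change was 0.39, against -0.01 over all tested genes. After challenge in wild-type, 36 of 37 rose and Ubtf did not pass, where 63.4% of all tested genes were called, 32.4% as higher and 30.9% as lower, with a median of 0.57 against -0.01. All 3 challenged libraries stood above all 3 unchallenged ones for 32 members in Mirc11-/- (20.9% of tested genes, with 18.4% below) and for 35 members in wild-type (30.1%, with 40.2% below). Without challenged Mirc11-/- replicate 3, 29 members rose in Mirc11-/-, and without unchallenged wild-type replicate 4, 35 rose in wild-type.

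Markers of dividing cells moved with these changes. All 16 such markers, among them Mki67, Top2a and Mcm5, rose after challenge in both genotypes, with summed levels of 1858 to 1874 CPM in challenged Mirc11-/-, 1273 to 1315 CPM in unchallenged Mirc11-/-, 2483 to 2678 CPM in challenged wild-type and 823 to 989.6 CPM in unchallenged wild-type libraries. Of 10 NK markers, 9 fell in Mirc11-/-, and 8 fell and 1, Prf1, rose in wild-type. Of 10 neutrophil markers, 7 rose and 3 fell in Mirc11-/- and 10 rose in wild-type, with summed levels of 849 to 1305, 477 to 495, 1682 to 1995 and 76.3 to 82 CPM in the same order of groups. Of 10 erythroid markers, 9 fell in each genotype, with summed levels of 20334 to 25401, 37200 to 41789, 1951 to 2512 and 11907 to 13878 CPM. Of 10 macrophage and monocyte markers, 7 rose in Mirc11-/- and 9 in wild-type, with summed levels of 833 to 1105, 671 to 695, 1279 to 1474 and 460.3 to 513 CPM. Of 10 B cell markers, 8 rose in Mirc11-/-, and 6 rose and 1 fell in wild-type, with summed levels of 1735 to 1823, 1229 to 1263, 1968 to 2050 and 1655 to 1879 CPM. Of 8 plasma cell markers, 7 rose and 1 fell in Mirc11-/-, and 4 rose and 2 fell in wild-type, with summed levels of 515 to 600.3, 388 to 425, 509 to 584 and 401 to 469 CPM. Of 10 T cell markers, 9 rose and 1 fell in Mirc11-/- and 9 fell in wild-type, with summed levels of 324 to 359.7, 235 to 259, 205 to 211 and 325 to 362 CPM. Of 8 platelet markers, 3 rose in Mirc11-/-, and 1 rose and 7 fell in wild-type, with summed levels of 313 to 358, 246 to 266, 343 to 403 and 493 to 663 CPM. Markers of dividing cells, neutrophils, macrophages, B cells and plasma cells thus summed higher after challenge in both genotypes with no overlap, as the members did. No marker of these lists was at 0 in all 3 libraries of a group. Their part in the members' changes was not tested.

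**Figure D2:**
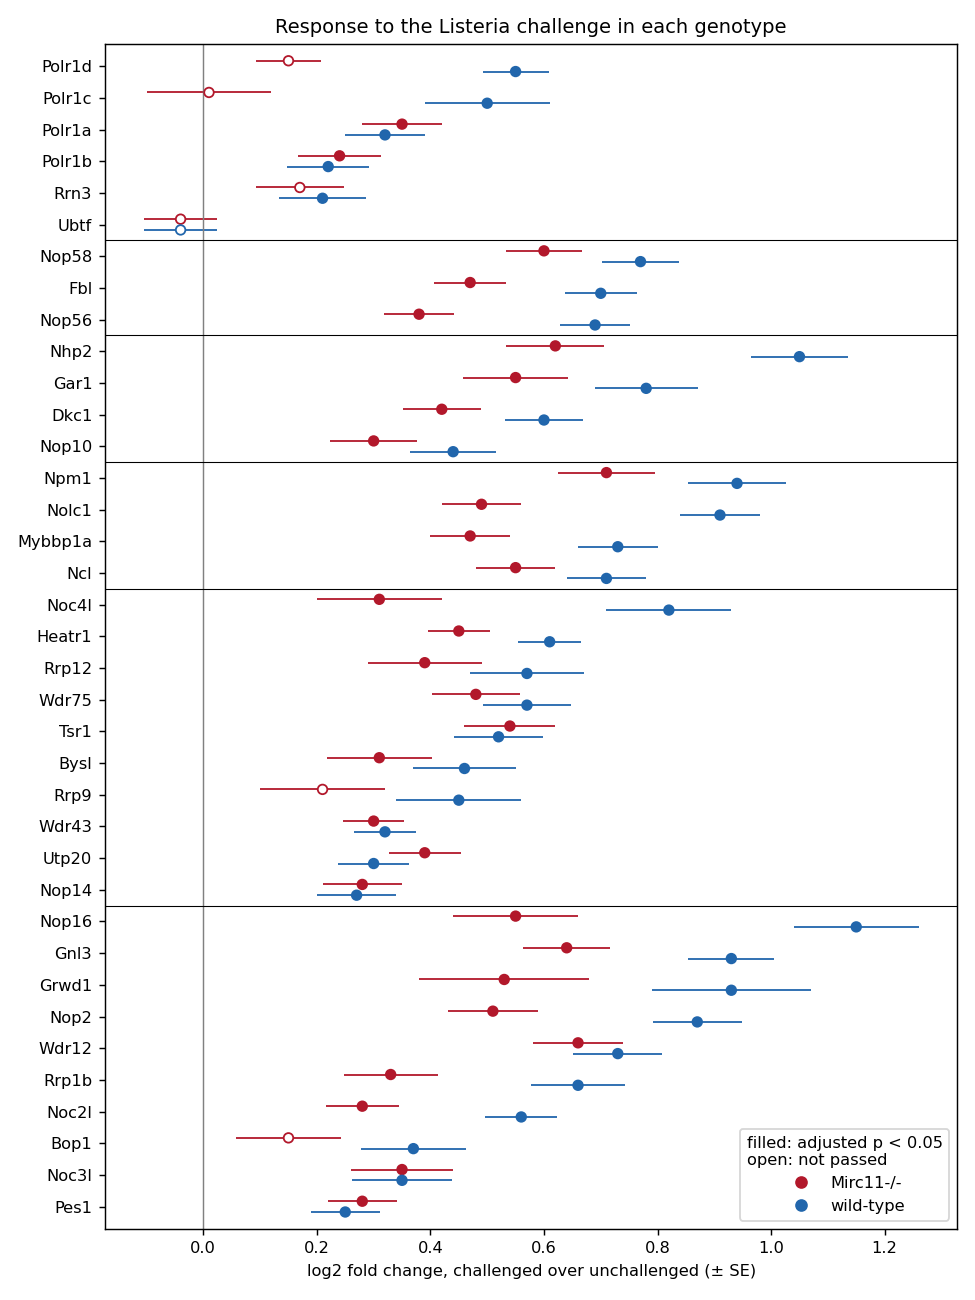
Log2 fold change of challenged over unchallenged libraries (horizontal axis, ± SE) for each of the 37 genes, in Mirc11-/- (red, upper point of each pair) and wild-type (blue, lower point), with lines between the roles. Points filled where the adjusted p was below 0.05 number 31 in Mirc11-/- and 36 in wild-type, and the pairs are widest apart at Nop16, Noc4l and Polr1c.

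RNA polymerase I and its factors had the smallest share of calls of the 6 roles. Of its 6 genes, 2 rose after challenge in Mirc11-/- and 5 in wild-type. Polr1a, the largest subunit of the enzyme (chromosome 6, 71909053 to 71984935 in GRCm38), measured 83.2, 72.4 and 73.3 CPM in challenged and 58.0, 58.0 and 62.8 CPM in unchallenged Mirc11-/- libraries, and 80.8, 76.2 and 83.7 CPM in challenged and 68.8, 72.1 and 66.7 CPM in unchallenged wild-type libraries. Polr1b, the second largest subunit, measured 50.2, 46.1 and 46.4 CPM in challenged and 38.1, 38.3 and 43.4 CPM in unchallenged Mirc11-/- libraries, against 48.4, 49.3 and 51.5 CPM in challenged and 44.1, 45.7 and 47.7 CPM in unchallenged wild-type libraries. For both genes, challenged libraries were higher in each genotype with no overlap, and unchallenged Mirc11-/- libraries were below unchallenged wild-type ones. Their estimated responses were close in the genotypes: Polr1a rose by 0.35 ± 0.071 in Mirc11-/- (edgeR adjusted p = 0.00196) and 0.32 ± 0.071 in wild-type (adjusted p = 0.00115) on the log2 scale, a difference of 0.03 ± 0.1, and Polr1b by 0.24 ± 0.073 and 0.22 ± 0.072, a difference of 0.02 ± 0.1. The call of Polr1b was lost in 5 of 15 alternatives in Mirc11-/- (edgeR adjusted p of up to 0.0927), among them the fits without unchallenged Mirc11-/- replicate 2 or 3 or challenged Mirc11-/- replicate 1. In wild-type it was lost in 4 of 15 (edgeR adjusted p of up to 0.181), among them column totals as library sizes and the fits without unchallenged wild-type replicate 2 or challenged wild-type replicate 3.

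Polr1c and Polr1d, the pair of subunits that RNA polymerase I shares with RNA polymerase III, behaved otherwise. Polr1d (chromosome 5, 147077050 to 147111597) had 81.3, 80.1 and 81.0 CPM in challenged and 71.0, 71.6 and 74.2 CPM in unchallenged Mirc11-/- libraries. In wild-type it had 89.2, 95.0 and 100.1 CPM in challenged and 68.6, 69.5 and 70.6 CPM in unchallenged libraries. The groups did not overlap in either genotype, and the gap was the wider in wild-type, where Polr1d rose by 0.55 ± 0.058 (edgeR adjusted p = 6.86e-07), while the log2 fold change in Mirc11-/- was 0.15 ± 0.058 and did not pass (adjusted p = 0.064). Polr1c had 33.8, 32.1 and 29.4 CPM in challenged and 30.8, 30.2 and 32.8 CPM in unchallenged Mirc11-/- libraries, which overlap, and 32.4, 39.1 and 46.8 CPM in challenged and 30, 31.3 and 28.6 CPM in unchallenged wild-type libraries. In wild-type it rose by 0.50 ± 0.11 (edgeR adjusted p = 0.000816), with replicate 3 the highest of the challenged libraries. In Mirc11-/- the log2 fold change was 0.01 ± 0.11.

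Rrn3, which brings the polymerase to the ribosomal DNA promoter, had 47.7, 46.5 and 45.0 CPM in challenged and 39.0, 40.2 and 43.7 CPM in unchallenged Mirc11-/- libraries, against 42, 46.5 and 49.9 CPM in challenged and 45.3, 42.8 and 40.4 CPM in unchallenged wild-type libraries. The wild-type groups overlap in CPM, and the fitted rise of 0.21 ± 0.077 (edgeR adjusted p = 0.0271) did not pass in 7 of 15 alternatives (edgeR adjusted p of up to 0.251), among them column totals as library sizes and the fits without unchallenged wild-type replicate 3 or 4 or challenged wild-type replicate 2 or 3. Ubtf, the factor that coats active ribosomal DNA, was the only member with no call in either genotype, at 219.9, 199.7 and 219 CPM in challenged and 217, 213 and 224 CPM in unchallenged Mirc11-/- libraries and 176, 179 and 199 CPM in challenged and 197, 212 and 204 CPM in unchallenged wild-type libraries. Its log2 fold change was -0.04 ± 0.065 in Mirc11-/- and -0.04 ± 0.065 in wild-type. Its challenged and unchallenged libraries overlap in both genotypes. By column totals it stood higher in every Mirc11-/- library than in any wild-type library of the same treatment. The margin was narrow in both, with 213 against 212 CPM without and 199.7 against 199 CPM after challenge. The fit, with TMM-scaled library sizes, called neither genotype difference for Ubtf. Both were 0.11 ± 0.065 (edgeR adjusted p = 0.359 without and 0.184 after challenge).

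The 16 other subunits and factors of RNA polymerase I moved in both directions. After challenge in Mirc11-/-, 4 rose and 1 fell, with a median of 0.08, and in wild-type 6 rose and 5 fell, with a median of -0.01. Polr2l, a small subunit shared by all 3 nuclear polymerases, rose by 0.35 ± 0.092 in Mirc11-/- and 0.70 ± 0.092 in wild-type. Baz2a, a subunit of the complex that silences ribosomal DNA repeats, fell, with log2 fold changes of -0.34 ± 0.06 in Mirc11-/- and -0.59 ± 0.06 in wild-type (edgeR adjusted p = 0.000539 and 4.32e-07). Taf1b, a subunit of the promoter selectivity factor, fell in wild-type, with a log2 fold change of -0.38 ± 0.079. Among 18 subunits of RNA polymerases II and III outside these lists, 1 rose and 3 fell in Mirc11-/-, and 7 rose and 5 fell in wild-type, so subunits of the polymerases did not share 1 direction.

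**Figure D3:**
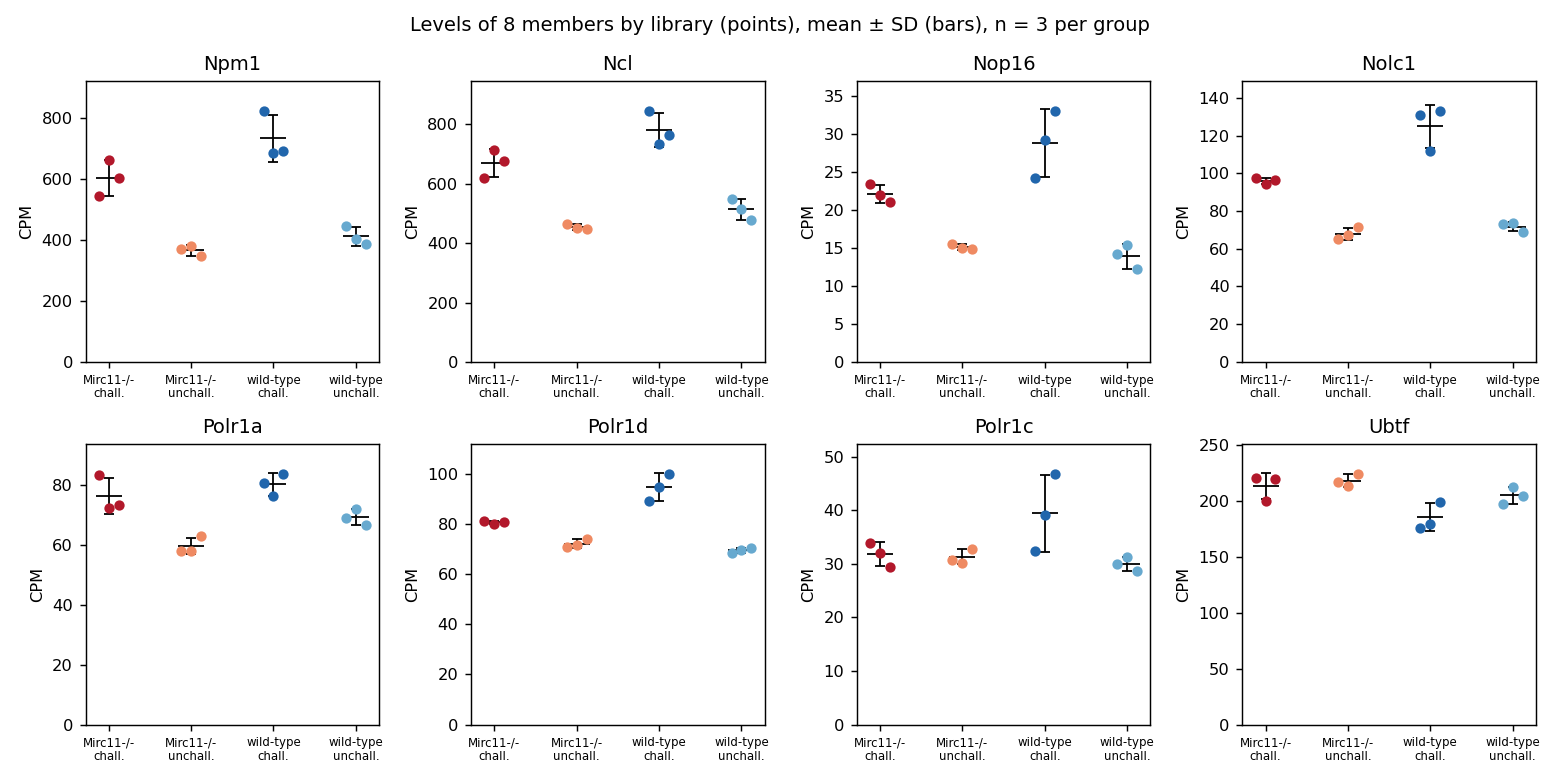
CPM of 8 genes in each library (points), with the mean and SD of each group of 3 (black), for challenged Mirc11-/-, unchallenged Mirc11-/-, challenged wild-type and unchallenged wild-type from left to right; each vertical axis starts at 0. Npm1, Ncl, Nop16 and Nolc1 are higher with challenge in both genotypes, Polr1c only separates in wild-type, and Ubtf overlaps between treatments.

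All 3 box C/D particle proteins rose in both genotypes, with medians of 0.47 in Mirc11-/- and 0.70 in wild-type. Fbl, the methyltransferase fibrillarin, measured 101, 106 and 101 CPM in challenged and 76.6, 70.2 and 74.1 CPM in unchallenged Mirc11-/- libraries, and 107, 115 and 126 CPM in challenged and 77.5, 77.6 and 74.6 CPM in unchallenged wild-type libraries. Nop56, a core protein of the particle, measured 165, 162 and 177 CPM in challenged and 122, 128 and 134 CPM in unchallenged Mirc11-/- libraries, against 206, 198 and 216 CPM in challenged and 141, 138 and 133 CPM in unchallenged wild-type libraries. Nop58, its paired core protein, measured 90.9, 108 and 97.8 CPM in challenged and 67, 62.6 and 64.9 CPM in unchallenged Mirc11-/- libraries, against 124, 111 and 113 CPM in challenged and 74.8, 73.8 and 71.6 CPM in unchallenged wild-type libraries. Each was higher with challenge with no overlap, and every challenged Mirc11-/- library was below every challenged wild-type one. Nop58 had the smallest p of the members after challenge in Mirc11-/- (0.60 ± 0.067, edgeR adjusted p = 9.26e-06), against 0.77 ± 0.067 in wild-type.

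The 4 box H/ACA particle proteins also rose in both genotypes, with medians of 0.48 and 0.69 in Mirc11-/- and wild-type. Dkc1, the pseudouridine synthase dyskerin, measured 70.6, 81.2 and 76.7 CPM in challenged and 58.9, 55.8 and 55.4 CPM in unchallenged Mirc11-/- libraries, and 94.9, 89.2 and 87.6 CPM in challenged and 69.3, 64.1 and 59.6 CPM in unchallenged wild-type libraries. Nhp2, a small core protein of the particle, measured 44.3, 37.4 and 42.3 CPM in challenged and 24.5, 26.9 and 28.9 CPM in unchallenged Mirc11-/- libraries, against 54.2, 52.6 and 57.1 CPM in challenged and 27.6, 29.8 and 27.9 CPM in unchallenged wild-type libraries. It was the widest change of the role, 0.62 ± 0.086 in Mirc11-/- and 1.05 ± 0.085 in wild-type (edgeR adjusted p = 7.4e-05 and 3.99e-08). Nop10, the smallest core protein, measured 39.9, 43.0 and 39.6 CPM in challenged and 31.4, 32.2 and 35.3 CPM in unchallenged Mirc11-/- libraries, against 39.8, 41.6 and 47.4 CPM in challenged and 33.4, 34.8 and 33.5 CPM in unchallenged wild-type libraries. Gar1, which helps release the modified RNA, measured 22.5, 24.7 and 21.8 CPM in challenged and 17.1, 16.0 and 13.8 CPM in unchallenged Mirc11-/- libraries, against 28.4, 26.0 and 28.5 CPM in challenged and 18.6, 16.5 and 16.8 CPM in unchallenged wild-type libraries. The challenged groups of Nop10 overlap between the genotypes, whereas those of Dkc1, Nhp2 and Gar1 do not.

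Assembly factors load the proteins onto both kinds of particle. Of 10 such genes, 6 rose in Mirc11-/- and 7 in wild-type, with medians of 0.30 and 0.51. Ruvbl1 and Ruvbl2, the paired ATPases of this machinery, rose by 0.26 ± 0.085 and 0.43 ± 0.095 in Mirc11-/- and by 0.84 ± 0.085 and 0.90 ± 0.095 in wild-type. Ruvbl1 had 50.6, 43.2 and 46.1 CPM in challenged and 37.9, 36.2 and 41.8 CPM in unchallenged Mirc11-/- libraries, and 55.4, 60 and 65.5 CPM in challenged and 36.4, 37.0 and 34.8 CPM in unchallenged wild-type libraries. The difference between its responses was -0.58 ± 0.12 (edgeR adjusted p = 0.00151).

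Among the 4 abundant nucleolar proteins, Npm1 had the widest change of any member in Mirc11-/-. Npm1, the histone and ribosome chaperone nucleophosmin (chromosome 11, 33152287 to 33163206), measured 542, 659.7 and 603 CPM in challenged and 371, 379 and 346 CPM in unchallenged Mirc11-/- libraries, and 821, 684 and 690.1 CPM in challenged and 446, 402 and 385 CPM in unchallenged wild-type libraries. It rose by 0.71 ± 0.086 in Mirc11-/- (edgeR adjusted p = 2.08e-05) and by 0.94 ± 0.086 in wild-type (adjusted p = 1.5e-07). Ncl, the RNA-binding protein nucleolin (chromosome 1, 86344719 to 86359400), measured 621, 714 and 677 CPM in challenged and 465, 452 and 447 CPM in unchallenged Mirc11-/- libraries, and 845, 735 and 763 CPM in challenged and 548, 515 and 479.7 CPM in unchallenged wild-type libraries. For both genes the order of the groups was the same and free of overlap: challenged wild-type highest, then challenged Mirc11-/-, then unchallenged wild-type, then unchallenged Mirc11-/-.

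Nolc1, a chaperone of snoRNA particles, measured 97.4, 94.4 and 96.7 CPM in challenged and 65.2, 67.2 and 71.4 CPM in unchallenged Mirc11-/- libraries, against 131, 112 and 133 CPM in challenged and 73.1, 73.4 and 68.8 CPM in unchallenged wild-type libraries. The 3 challenged Mirc11-/- libraries lay between 94.4 and 97.4 CPM, below all challenged wild-type ones. In wild-type it had the smallest p of all members (0.91 ± 0.07, edgeR adjusted p = 2.01e-08), against 0.49 ± 0.07 in Mirc11-/-. Mybbp1a, a nucleolar MYB-binding protein, measured 236, 205 and 216 CPM in challenged and 157, 154 and 161 CPM in unchallenged Mirc11-/- libraries, and 279, 282 and 309.8 CPM in challenged and 186, 200.5 and 178 CPM in unchallenged wild-type libraries. It was lower in Mirc11-/- in both treatments with no overlap.

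Of the 10 members that build the small subunit, 9 rose after challenge in Mirc11-/- and all 10 in wild-type, with medians of 0.35 and 0.49. Heatr1, a processome protein that also acts in ribosomal DNA transcription, measured 103, 104 and 97.9 CPM in challenged and 74.4, 73.8 and 73.8 CPM in unchallenged Mirc11-/- libraries, and 118, 122 and 128 CPM in challenged and 86.8, 89.6 and 82.7 CPM in unchallenged wild-type libraries. Utp20, a large scaffold of the processome, measured 67.9, 67.1 and 61.0 CPM in challenged and 47.9, 50.1 and 50.9 CPM in unchallenged Mirc11-/- libraries, against 68.2, 65.6 and 70.6 CPM in challenged and 62.3, 58.7 and 57.7 CPM in unchallenged wild-type libraries. Tsr1, a late assembly factor, measured 66.3, 63.5 and 56.3 CPM in challenged and 40.9, 42 and 44.1 CPM in unchallenged Mirc11-/- libraries, against 66.1, 71.0 and 77.1 CPM in challenged and 57.8, 52.0 and 51.2 CPM in unchallenged wild-type libraries. All 3 genes were lowest in unchallenged Mirc11-/- libraries, below every unchallenged wild-type one, and after challenge the genotypes overlapped for Utp20 and Tsr1.

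Noc4l, a partner of Nop14, measured 41.8, 30.2 and 36.3 CPM in challenged and 27.6, 27.0 and 32.6 CPM in unchallenged Mirc11-/- libraries, which overlap, and 48.7, 46.5 and 49.5 CPM in challenged and 29.8, 29.9 and 28.3 CPM in unchallenged wild-type libraries, which do not. Its rise in Mirc11-/- of 0.31 ± 0.11 (edgeR adjusted p = 0.0496) did not pass in 8 of 15 alternatives (adjusted p of up to 0.2), among them the fits without challenged Mirc11-/- replicate 1 or 3 or unchallenged Mirc11-/- replicate 2 or 3. In wild-type it rose by 0.82 ± 0.11. Nop14 averaged 44.7 ± 2.07 CPM in challenged and 36.5 ± 2.06 CPM in unchallenged Mirc11-/- libraries and 48.3 ± 2.05 CPM in challenged and 43.0 ± 1.89 CPM in unchallenged wild-type libraries (SD, n = 3). Wdr43 and Wdr75, WD-repeat proteins of the early processome, rose by 0.30 ± 0.054 and 0.48 ± 0.078 in Mirc11-/- and by 0.32 ± 0.054 and 0.57 ± 0.077 in wild-type. Rrp12 and Bysl, which act on the way to export, rose by 0.39 ± 0.1 and 0.31 ± 0.092 in Mirc11-/- and by 0.57 ± 0.1 and 0.46 ± 0.091 in wild-type. The call of Bysl in Mirc11-/- was lost in 6 of 15 alternatives (edgeR adjusted p of up to 0.086), among them the fits without challenged Mirc11-/- replicate 1 or 3 or unchallenged Mirc11-/- replicate 3 or 4. Rrp9, a protein of the U3 snoRNA particle, had log2 fold changes of 0.21 ± 0.11 in Mirc11-/-, which did not pass, and 0.45 ± 0.11 in wild-type.

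The small subunit processome has further proteins outside the members. Of 45 such genes, 18 rose in Mirc11-/- and 29 in wild-type, with medians of 0.19 and 0.28, and the remaining 27 and 16 did not pass. Pno1, a protein that stays with the small subunit into the cytoplasm, had the smallest p of the list in both genotypes, at 20.5, 23.9 and 26.4 CPM in challenged and 12.5, 11.8 and 11.6 CPM in unchallenged Mirc11-/- libraries, and 30.3, 28.3 and 28.7 CPM in challenged and 14.3, 15.2 and 14.1 CPM in unchallenged wild-type libraries. It rose by 0.97 ± 0.094 in Mirc11-/- and 1.11 ± 0.093 in wild-type (edgeR adjusted p = 2.32e-06 and 5.24e-08), above the widest member change in Mirc11-/-. Utp14a rose by 0.40 ± 0.071 in Mirc11-/-, and Fcf1 rose by 0.67 ± 0.069 in wild-type.

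The 10 members of large subunit assembly held the widest range of responses, with log2 fold changes of 0.15 to 0.66 in Mirc11-/- (9 rose) and 0.25 to 1.15 in wild-type (10 rose). Nop16 (chromosome 13, 54584185 to 54590090), a nucleolar assembly factor, measured 23.4, 21.9 and 21.1 CPM in challenged and 15.5, 15.0 and 14.8 CPM in unchallenged Mirc11-/- libraries, and 24.2, 29.2 and 33.0 CPM in challenged and 14.2, 15.4 and 12.2 CPM in unchallenged wild-type libraries. It was the widest wild-type change of any member, 1.15 ± 0.11 (edgeR adjusted p = 2.87e-07), against 0.55 ± 0.11 in Mirc11-/-. Gnl3, the GTPase nucleostemin, measured 46.1, 50.6 and 50.6 CPM in challenged and 31.9, 30.3 and 31.4 CPM in unchallenged Mirc11-/- libraries, and 67.3, 56.9 and 58.1 CPM in challenged and 35.4, 34.5 and 32.6 CPM in unchallenged wild-type libraries. Nop2, a methyltransferase of the large ribosomal RNA, measured 62.3, 53.5 and 58.1 CPM in challenged and 40.5, 39.0 and 41.8 CPM in unchallenged Mirc11-/- libraries, against 75.1, 76.0 and 84.3 CPM in challenged and 44.3, 50 and 44.3 CPM in unchallenged wild-type libraries. All 3 genes were higher with challenge without overlap, and lower in challenged Mirc11-/- libraries than in any challenged wild-type one.

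Pes1, Bop1 and Wdr12 form 1 complex in large subunit assembly and are known to depend on each other. Wdr12 measured 36.1, 37.6 and 37.7 CPM in challenged and 23.4, 22.8 and 23.8 CPM in unchallenged Mirc11-/- libraries, and 42.7, 42.7 and 47.4 CPM in challenged and 31.8, 28.1 and 26.1 CPM in unchallenged wild-type libraries. Bop1 measured 80.9, 62.8 and 72.3 CPM in challenged and 62.6, 62.9 and 68.4 CPM in unchallenged Mirc11-/- libraries, and 78.0, 80.3 and 89.8 CPM in challenged and 64.2, 73.6 and 68.0 CPM in unchallenged wild-type libraries. Pes1 measured 83.1, 81.7 and 87.2 CPM in challenged and 70.2, 65.4 and 70.7 CPM in unchallenged Mirc11-/- libraries, and 86.7, 81.9 and 90.1 CPM in challenged and 76.4, 78.8 and 78.9 CPM in unchallenged wild-type libraries. Only Bop1 overlapped between treatments, in Mirc11-/-. Wdr12 rose by 0.66 ± 0.079 in Mirc11-/- and 0.73 ± 0.078 in wild-type, and Pes1 by 0.28 ± 0.061 and 0.25 ± 0.061. Bop1 rose by 0.37 ± 0.092 in wild-type, with 0.15 ± 0.093 in Mirc11-/- (edgeR adjusted p = 0.267). The estimate was widest for Wdr12 in both genotypes, and the difference between the 3 genes was not tested.

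Rrp1b, a nucleolar homolog of yeast Rrp1, measured 46.7, 40.1 and 42.4 CPM in challenged and 35.2, 30.7 and 36.4 CPM in unchallenged Mirc11-/- libraries, and 58.0, 58.7 and 61.0 CPM in challenged and 41.0, 42.3 and 37.6 CPM in unchallenged wild-type libraries. It was lower in Mirc11-/- than in wild-type in each treatment without overlap. Noc2l and Noc3l, homologs of yeast proteins that carry the precursor through the nucleus, rose by 0.28 ± 0.064 and 0.35 ± 0.089 in Mirc11-/- and by 0.56 ± 0.063 and 0.35 ± 0.088 in wild-type. Grwd1, a WD-repeat chaperone, rose by 0.53 ± 0.15 in Mirc11-/- and 0.93 ± 0.14 in wild-type and had the widest standard errors of the members. In Mirc11-/- the call was lost in 3 of 15 alternatives for Grwd1 (without challenged replicate 1, without unchallenged replicate 3 and with a replicate block), in 2 for Rrp1b (without unchallenged replicate 3 and with the block) and in 1 for Noc3l (with the block). Of 47 other large subunit assembly genes, 18 rose in Mirc11-/- and 29 did not pass, whereas 25 rose and 6 fell in wild-type, with medians of 0.17 and 0.22. The RNA helicases Ddx21 and Ddx18 rose by 0.40 ± 0.056 and 0.36 ± 0.055 in Mirc11-/- and by 0.49 ± 0.056 and 0.66 ± 0.055 in wild-type.

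**Figure D4:**
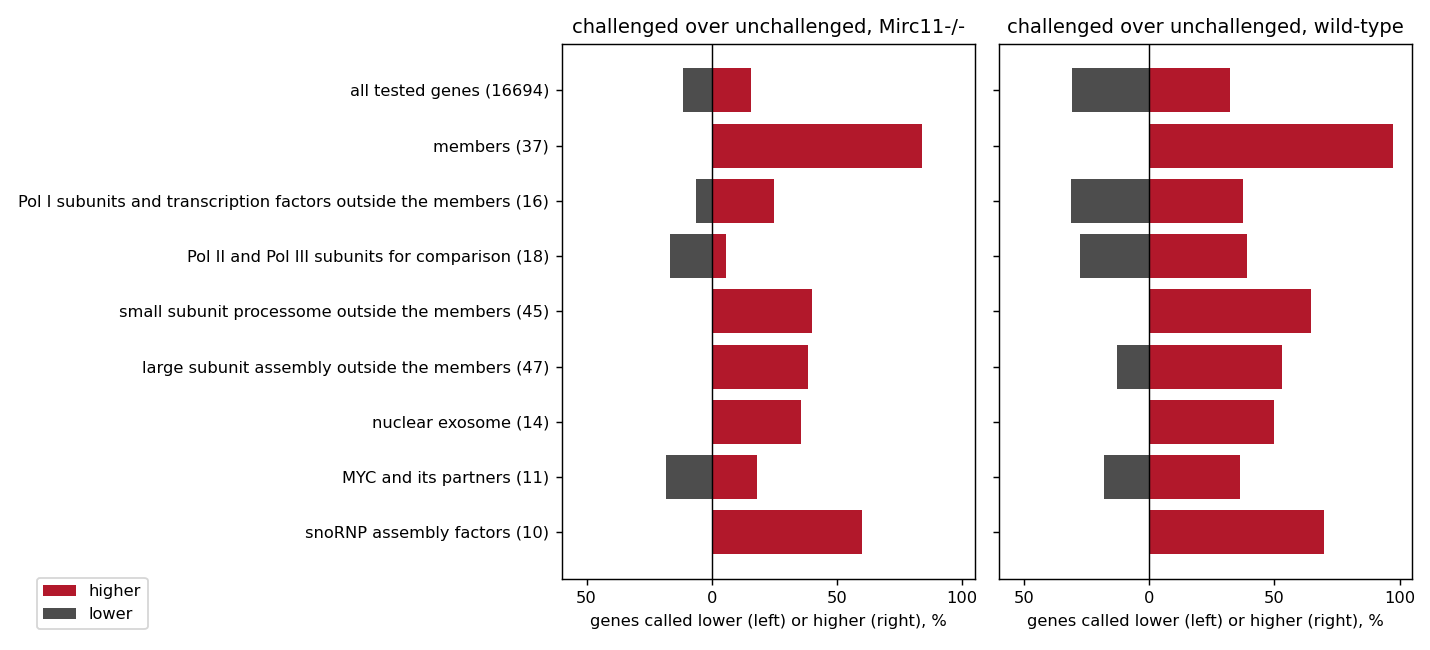
Share of genes called higher (red, to the right) or lower (grey, to the left) after challenge, in percent of the genes tested, for all tested genes, the 37 members and 7 other lists, in Mirc11-/- (left panel) and wild-type (right panel). The members reach 83.8% and 97.3% higher, above each of the other lists in the same panel. Members and lists were chosen with earlier results of these data known, so this order is a description and no test.

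Without challenge, members were slightly lower in Mirc11-/- than in wild-type. In this contrast 6 of 37 were lower and 31 did not pass, where 11.7% of all tested genes were called, 5.07% as lower and 6.64% as higher, with a median of -0.13 against -0.01 over all tested genes. The 6 were Tsr1 (-0.32 ± 0.08, edgeR adjusted p = 0.0137), Utp20 (-0.24 ± 0.063, adjusted p = 0.0191), Heatr1 (-0.20 ± 0.056, adjusted p = 0.0246), Wdr43 (-0.19 ± 0.054, adjusted p = 0.0295), Wdr12 (-0.28 ± 0.08, adjusted p = 0.0326) and Mybbp1a (-0.24 ± 0.07, adjusted p = 0.0347). By role, 4 of these 6 build the small subunit. Each of the 6 calls was lost in some of the 15 alternatives, from 3 for Tsr1 to 8 for Wdr43. All 3 Mirc11-/- libraries stood below all 3 wild-type ones for 19 members (18.2% of tested genes) and above them for Polr1d and Ubtf (14.4%). The count depended on single libraries: 5 were lower without unchallenged wild-type replicate 4, 3 without unchallenged Mirc11-/- replicate 4 and 1 without unchallenged wild-type replicate 3. Without unchallenged wild-type replicate 2, or unchallenged Mirc11-/- replicate 2 or 3, edgeR called none, with 12, 11 and 7 members lower at an unadjusted p below 0.05, and DESeq2 called 6 with all libraries. Of the 16 markers of dividing cells, 11 were higher in unchallenged Mirc11-/- libraries, and all 10 erythroid, 9 of 10 neutrophil and 5 of 10 macrophage and monocyte markers were higher. Lower, as the members were, stood 9 of 10 B cell markers (1229 to 1263 CPM summed in Mirc11-/-, against 1655 to 1879 CPM in wild-type), 7 of 10 T cell markers (235 to 259, against 325 to 362 CPM), all 8 platelet markers (246 to 266, against 493 to 663 CPM) and 4 of 8 plasma cell markers (388 to 425, against 401 to 469 CPM). Their part in the members' levels was not tested.

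After challenge, 28 of 37 members were lower in Mirc11-/- than in wild-type and 9 did not pass, where 48.7% of all tested genes were called, 25.9% as lower and 22.7% as higher. The median was -0.33, against 0.00 over all tested genes, and 27 were lower without challenged Mirc11-/- replicate 3. All 3 Mirc11-/- libraries stood below all 3 wild-type ones for 20 members (22.3% of tested genes) and above them for Ubtf (31.4%). Widest were Rrp1b (-0.55 ± 0.082, edgeR adjusted p = 5.04e-05) and Nop2 (-0.53 ± 0.077, adjusted p = 4.37e-05), and Mybbp1a (-0.50 ± 0.069, adjusted p = 2.72e-05) and Nolc1 (-0.48 ± 0.069, adjusted p = 3.86e-05) had the smallest p. All 4 abundant nucleolar proteins, all 3 box C/D proteins and 3 of 4 box H/ACA proteins were lower, as were 8 of 10 members of each subunit's assembly and 2 of 6 genes of RNA polymerase I. The 9 that did not pass were Polr1a, Polr1b, Rrn3, Ubtf, Nop10, Rrp9, Utp20, Noc3l and Pes1, and Utp20 had an adjusted p of 0.0505. Of the 28 calls, 6 were lost in some alternatives, in 7 of 15 for Nop14 and Rrp12, 6 for Wdr75, 5 for Bop1 and Bysl and 2 for Wdr43. Outside the members, 17 of 45 processome genes were lower, and 19 of 47 large subunit assembly genes were lower and 1 higher. All 16 markers of dividing cells were lower in challenged Mirc11-/- libraries (1858 to 1874 CPM summed, against 2483 to 2678 CPM in wild-type), 8 of 10 neutrophil markers were lower and 2 higher, and 8 of 10 macrophage and monocyte markers were lower and 1 higher. Of 10 B cell markers 5 were lower and 1 higher (1735 to 1823 CPM summed in Mirc11-/-, against 1968 to 2050 CPM in wild-type), and of 8 plasma cell markers 4 were lower and 3 higher. In the other direction, 6 of 10 NK markers were higher and Prf1 lower (6544 to 6986 CPM summed, against 5067 to 5238 CPM), all 10 erythroid and all 10 T cell markers were higher, and 5 of 8 platelet markers were higher and 1 lower. The part of these cells in the members' levels was not tested.

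The test of the difference itself asked whether the challenge response in Mirc11-/- departed from that in wild-type. It uses the same libraries as the contrasts above. In 11 of 37 members the response was smaller in Mirc11-/- and 26 did not pass, where 35.2% of all tested genes were called, 18.5% with a lower and 16.7% with a higher response, with a median difference of -0.18 against 0.00. The 11 included the subunits Polr1d (-0.40 ± 0.081, edgeR adjusted p = 0.0014) and Polr1c (-0.49 ± 0.15, adjusted p = 0.0215). Among them were also the abundant nucleolar protein Nolc1 (-0.42 ± 0.098, edgeR adjusted p = 0.0039), the box H/ACA protein Nhp2 (-0.43 ± 0.12, adjusted p = 0.0121) and the box C/D protein Nop56 (-0.31 ± 0.088, adjusted p = 0.0126). The rest were the small subunit factor Noc4l (-0.52 ± 0.15, edgeR adjusted p = 0.0162) and 5 large subunit factors. These 5 were Nop16 (-0.61 ± 0.16, adjusted p = 0.00738), Nop2 (-0.36 ± 0.11, adjusted p = 0.021), Rrp1b (-0.33 ± 0.12, adjusted p = 0.0406), Noc2l (-0.27 ± 0.09, adjusted p = 0.0275) and Gnl3 (-0.29 ± 0.11, adjusted p = 0.0479).

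Polr1d, Nolc1, Nop16 and Nhp2 kept their call in all 20 alternatives. The call was lost in 15 of the 20 for Gnl3, 13 for Rrp1b and 9 for Noc2l. For Nop2 and Polr1c it was lost in 5 each, and for Noc4l and Nop56 in 1 each. The count of members was 7 without challenged Mirc11-/- replicate 3, 6 without unchallenged wild-type replicate 4, 5 without unchallenged Mirc11-/- replicate 4, and 7 without challenged wild-type replicate 3 or unchallenged wild-type replicate 2. With column totals as library sizes it was 5, a scaling that moves the median of all genes by 0.12 in this contrast. For 7 members the estimate was above 0, from 0.01 ± 0.099 (Nop14) to 0.09 ± 0.089 (Utp20), none of which passed the test. All 16 markers of dividing cells also had a lower response in Mirc11-/-, with a median difference of -1.25, as did all 10 neutrophil markers, with a median of -3.57, and 7 of 10 macrophage and monocyte markers. A higher one was called for all 10 T cell, 9 of 10 erythroid, 7 of 8 platelet and 4 of 10 B cell markers, for 6 of 10 NK markers with 1 lower, and for 3 of 8 plasma cell markers with 1 lower. Their part in the members' difference was not tested.

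The lists around the members held calls in both directions for this difference. Among other processome genes, the response in Mirc11-/- minus that in wild-type was called below 0 for 5 and above 0 for 1, with -0.41 ± 0.098 for Rrp7a, -0.38 ± 0.098 for Fcf1 and 0.34 ± 0.12 for Diexf. Among other large subunit assembly genes, 7 were below 0 and 1 above, with -0.49 ± 0.11 for Mrto4, -0.40 ± 0.084 for the helicase Ddx24 and 0.43 ± 0.12 for the helicase Ddx51. Among the other subunits and factors of RNA polymerase I, 2 were below 0 and 2 above, with -0.53 ± 0.17 for Polr2f, -0.35 ± 0.13 for Polr2l, 0.34 ± 0.11 for Taf1b and 0.25 ± 0.084 for Baz2a. In the MYC list 3 were below 0 and 1 above, and among the assembly factors of snoRNA particles 2 of 10 were below 0, Ruvbl1 and Ruvbl2 (-0.46 ± 0.13).

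**Figure D5:**
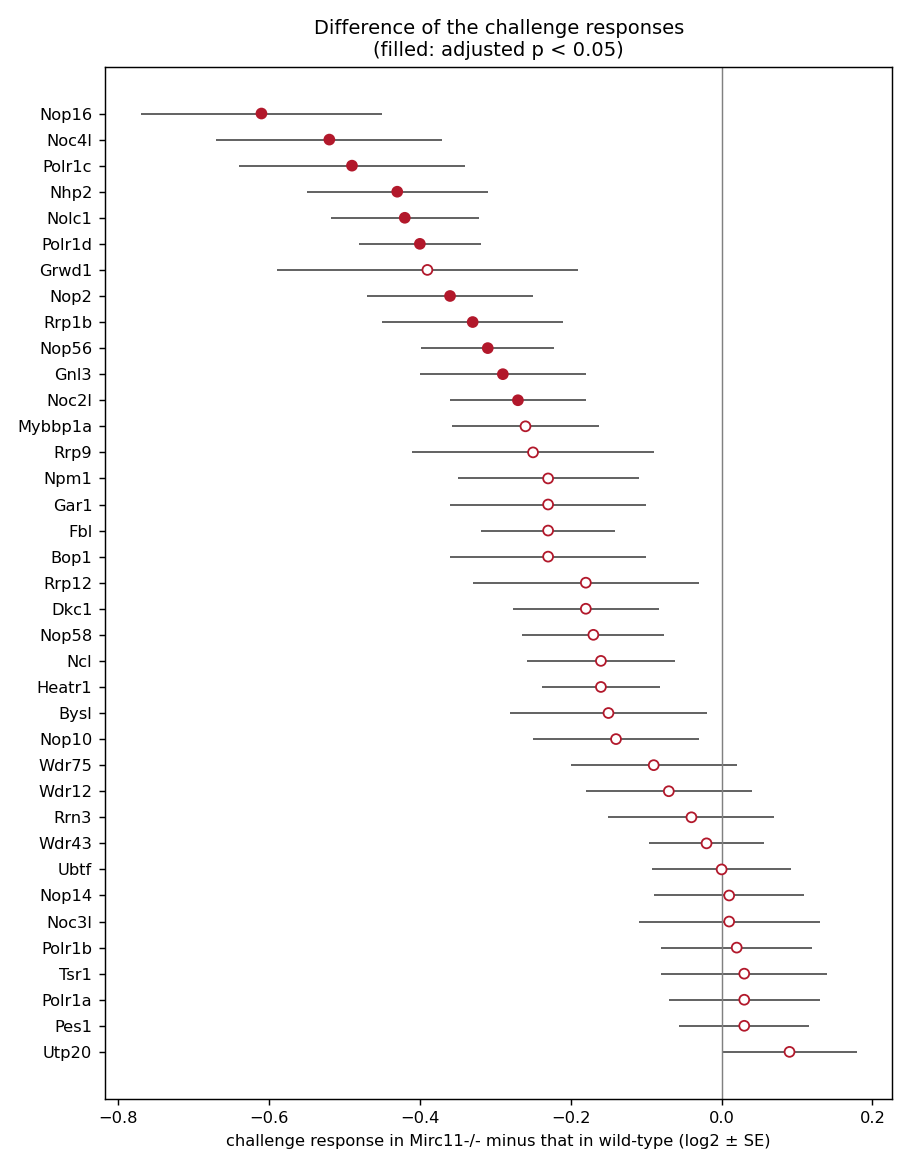
Challenge response in Mirc11-/- minus that in wild-type, as log2 ± SE (horizontal axis), for each of the 37 genes, sorted from the most negative at the top. The 11 filled points (adjusted p below 0.05) run from -0.61 at Nop16 to -0.27 at Noc2l, and 7 genes from Nop14 to Utp20 lie above 0.

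Myc itself and its partners were read beside the members. Myc measured 129.7, 112 and 125 CPM in challenged and 79.2, 81.6 and 87.0 CPM in unchallenged Mirc11-/- libraries, and 200.5, 189 and 193 CPM in challenged and 94.3, 96.4 and 88.9 CPM in unchallenged wild-type libraries. Challenged libraries were higher in each genotype without overlap, and challenged Mirc11-/- libraries lay below all challenged wild-type ones. Myc rose by 0.56 ± 0.069 in Mirc11-/- (edgeR adjusted p = 2.76e-05) and 1.16 ± 0.069 in wild-type (adjusted p = 1.1e-09), a difference of -0.61 ± 0.097 (adjusted p = 0.000198). Mxd1, a partner of MAX that opposes MYC, measured 239, 221 and 216 CPM in challenged and 169, 169 and 173 CPM in unchallenged Mirc11-/- libraries, and 564, 585 and 552 CPM in challenged and 126, 133 and 136 CPM in unchallenged wild-type libraries. Mxd4, of the same family, measured 184, 167 and 201 CPM in challenged and 247, 248 and 252 CPM in unchallenged Mirc11-/- libraries, and 49.4, 59.1 and 57.3 CPM in challenged and 244, 252 and 254 CPM in unchallenged wild-type libraries. By the fit, in wild-type Mxd1 rose by 2.21 ± 0.062 and Mxd4 fell, with a log2 fold change of -2.07 ± 0.082, so members of this family moved in opposite directions, whereas in Mirc11-/- the changes were 0.40 ± 0.059 and -0.44 ± 0.078. The difference of responses was -1.81 ± 0.084 for Mxd1 and 1.63 ± 0.11 for Mxd4 (edgeR adjusted p = 4.06e-09 and 6.32e-08). Of the 11 genes of this list, 2 rose and 2 fell in Mirc11-/-, and 4 rose and 2 fell in wild-type.

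Responses were also read by promoter. For the 8 members with the E-boxes shown above, the median log2 fold change was 0.43 in Mirc11-/- and 0.42 in wild-type, against 0.35 and 0.60 for the 25 members whose windows hold none. Their median difference of responses was -0.03, with Nop2 the only 1 of the 8 called, against -0.18 for the 25, with 10 called. In the unchallenged genotype contrast, 4 of the 8 were called lower (Utp20, Wdr43, Tsr1 and Mybbp1a), against 2 of the 25. None of these calls held in every alternative. In the challenged genotype contrast, 5 of the 8 were called lower, against 19 of the 25, with medians of -0.26 and -0.35. These splits are descriptions with no test.

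MicroRNAs pair through their seed with complementary letters in target RNAs, here AATGTGA for miR-23a, ACTGTGA for miR-27a and CTGAGCC for miR-24. The longest annotated 3′ UTR held the 7-base complement of a seed for 9 of 37 members (24.3%), against 5470 of 13486 tested genes (40.6%), and the median length of that 3′ UTR was 553 bases in members against 1162 bases in tested genes. The 9 were Nop58, Nop56, Ncl, Nop16, Rrp12, Rrp1b, Polr1a, Ubtf and Bysl, and Polr1a held matches for all 3 microRNAs. Their median log2 difference between unchallenged Mirc11-/- and wild-type libraries was -0.12, against -0.13 for the other 28. The 6 members called lower there hold no match, and none of those calls held in every alternative. After challenge, 7 of the 9 were called lower in Mirc11-/-, against 21 of the 28, with medians of -0.32 and -0.34. These splits were not tested. No match says only that these letters are not in that UTR. Whether genes outside the cluster make microRNAs with the same seeds was not analysed here, so the seeds may not be absent in Mirc11-/-.

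Members also host snoRNA genes. By the GENCODE vM21 annotation, 7 of 37 (18.9%) have a snoRNA gene within their bounds, namely Nop58, Nop56, Ncl, Dkc1, Wdr43, Tsr1 and Gnl3, against 218 of 13600 tested protein-coding genes (1.6%). All 7 hosts rose in both genotypes, with medians of 0.54 in Mirc11-/- and 0.69 in wild-type, against 0.35 and 0.56 for the other 30. The levels of the snoRNAs were not analysed here. Exons of 18 members overlap a gene on the opposite strand, such as Idh3b at Nop56, Ccnd3 at Bysl, Srr at Tsr1, Pbrm1 at Gnl3 and Spns2 at Mybbp1a. The strand setting of the counting is unknown here, so reads of such pairs cannot be told apart.

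Per kilobase of coding length, levels differed widely between members. In challenged Mirc11-/- libraries, Npm1 averaged 687, Ncl 316, Nop10 213 and Polr1d 202 CPM per kilobase, and in unchallenged wild-type libraries 469, 242, 177 and 174. At the other end stood Utp20 and Rrp12, with 7.81 and 8.4 CPM per kilobase in challenged Mirc11-/- and 7.12 and 7.01 in unchallenged wild-type libraries. Polr1d thus stood above Polr1a (14.8 and 13.4) on this scale, although both encode subunits of 1 enzyme. The scale leaves out the untranslated parts of a transcript, from which reads also come, so it raises genes where these are long. Coding bases were 192 of 1109 in the longest coding transcript for Nop10, 2121 of 8202 for Ncl, 399 of 1196 for Polr1d and 5151 of 9216 for Polr1a. Levels per kilobase of whole transcript were not analysed here and may rank the members otherwise.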

How the data were processed

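The members and lists were chosen with earlier results of these data known. The tools and build named in the submitters' processing notes are RSEM 1.3.0, GRCm38, Bowtie2 2.2.8, Trim Galore 0.4.1 and bcl2fastq. Per the labels, polyA RNA was extracted with Trizol and prepared with Illumina TruSeq RNA. The authors deposited whole-number counts per gene, not normalized. RSEM gives estimated counts, and their rounding, the annotation release and the strand setting remain details not given in the sources used here.

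From the counts, CPM of the column total was computed for levels. For tests, filterByExpr over the 4 groups kept 16694 genes, and edgeR 4.0.16 (R 4.3.3) was run with TMM, 1 term per group and the robust quasi-likelihood F test, with Benjamini-Hochberg adjustment across the tested genes of each of 5 contrasts. The code was tested on simulated data. Libraries of a group differed by 1.53 to 10.8 times counting noise, so none repeated the reads of another. The closest were unchallenged Mirc11-/- replicates 2 and 3. This does not show whether the libraries came from different mice. Alternatives covered scaling, filters, the groups fitted, a replicate block, leaving out each library and DESeq2 1.42.0. Values in every library are given for genes picked by role and for the called members with the 3 smallest p and 2 widest changes per contrast. Genes outside the members are Myc and, per list and direction, the called genes with the 2 smallest p in a contrast, some given in other contrasts too. The TMM factors were 0.949 to 0.954 in challenged wild-type and 1.01 to 1.04 in the other libraries. Annotation was GENCODE vM21 (GRCm38). Riok2 was not analysed here.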

Additional observations from a re-analysis of the deposited data

Results flagged for a closer look

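The challenge response differed between the genotypes, by the test of the difference itself (edgeR, adjusted over all tested genes), in 11 members, all with the smaller response in Mirc11-/-. These are 29.7% of the members, where 35.2% of all tested genes were called, 18.5% with a lower and 16.7% with a higher response. On the log2 scale the response in Mirc11-/- minus that in wild-type was -0.61 for Nop16, -0.52 for Noc4l, -0.49 for Polr1c, -0.43 for Nhp2, -0.42 for Nolc1, -0.40 for Polr1d, -0.36 for Nop2, -0.33 for Rrp1b, -0.31 for Nop56, -0.29 for Gnl3 and -0.27 for Noc2l. Of 20 alternatives, the call was lost in 15 for Gnl3, 13 for Rrp1b and 9 for Noc2l. For Nop2 and Polr1c it was lost in 5 each, and for Noc4l and Nop56 in 1 each. Polr1c and Polr1d, the subunits shared with RNA polymerase III, did not pass in Mirc11-/- and rose in wild-type, whereas Polr1a and Polr1b rose in both, although the call of Polr1b was lost in 5 of 15 alternatives in Mirc11-/- and in 4 of 15 in wild-type, single-library omissions among them. Challenged Mirc11-/- libraries stood below all challenged wild-type ones for 10 of the 11 and overlapped them for Polr1c. Over all tested genes, 22.3% stood below and 31.4% above in this way. The same libraries entered the test that picked the 11, so this is a description and no separate support.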

How the results depend on the processing

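Over 37 members, 5 contrasts and all alternatives, 2765 values kept their side of the threshold, 155 lost their call and 34 gained one. A further 6 changed sign without a call, by more than the standard error of the main estimate. Smaller changes of sign without a call were not counted apart and would be among the 2765. Those 6 came with column totals as library sizes: Rrn3 at 0.01 in the challenged genotype contrast, and Wdr12 at 0.05, Wdr43 at 0.09, Wdr75 at 0.03, Rrn3 at 0.07 and Ubtf at 0.11 in the difference of responses. The same scaling gave 5 members with a smaller response in place of 11, and the cause was not tested, although it moves the median of all genes by 0.12. Upper-quartile scaling moves that median by -0.11 in the wild-type challenge contrast, where 32 members rose in place of 36. Column totals, upper-quartile scaling and the fit without challenged Mirc11-/- replicate 2 each called 1 member, Ubtf, higher in the challenged genotype contrast. Without a filter on low counts, 2 members were lower in unchallenged Mirc11-/-. Leaving out 1 library gave 0 to 5 members lower without challenge, 0 to 1 higher after it, 5 to 14 with a smaller response, and 504 to 727 of all genes lower without challenge, against 846. Calls held in every alternative for 25 of 31 members after challenge in Mirc11-/- and 32 of 36 in wild-type. They held for 0 of 6 in the unchallenged genotype contrast, 22 of 28 in the challenged one and 4 of 11 in the difference. With TMM scaling, the members' CPM summed to 3659 in challenged and 2713 in unchallenged Mirc11-/- libraries. In wild-type the sums were 4567 in challenged and 2952 in unchallenged libraries. DESeq2 called 31, 36, 6, 30 and 13 members in the 5 contrasts. Correlations between same-numbered libraries were -0.317 to 0.249. Between treatments, the best correlation was with the own number for 2 of 2 pairs in Mirc11-/- and 1 of 2 in wild-type. Between genotypes, this held for 1 of 3 pairs without and 0 of 3 after challenge. Whether replicate numbers pair the libraries thus remains undecided. Titles of the unchallenged samples also carry a second, differing replicate number, which was not used. In the fit with a replicate block, 2 members were lower without challenge, 26 rose after it in Mirc11-/-, 9 had a smaller response, and 1185 genes fell after challenge in Mirc11-/-, against 1915. Depth did not limit any member.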

Other observations

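The nuclear exosome, which trims ribosomal RNA precursors, was read as a further list. Of its 14 genes, 5 rose after challenge in Mirc11-/- and 7 in wild-type, with medians of 0.17 and 0.24, and the others did not pass. Dis3, a catalytic subunit, rose by 0.52 ± 0.08 in Mirc11-/- (edgeR adjusted p = 0.000183) and 0.54 ± 0.08 in wild-type (adjusted p = 2.37e-05). Exosc8, a ring subunit, rose by 0.43 ± 0.058 in wild-type, and its response was smaller in Mirc11-/- by the test of the difference (-0.23 ± 0.082, adjusted p = 0.0382).

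Subunits of RNA polymerase III outside the pair shared with RNA polymerase I were read too. Polr3gl fell after challenge, with log2 fold changes of -0.31 ± 0.085 in Mirc11-/- and -0.80 ± 0.087 in wild-type, and Polr3b fell in wild-type (-0.43 ± 0.058). The difference of responses was 0.50 ± 0.12 for Polr3gl and 0.41 ± 0.082 for Polr3b, both above 0, and -0.35 ± 0.09 for Polr3c (edgeR adjusted p = 0.00494, 0.00117 and 0.00739). Nol10, a processome protein outside the members, was lower in Mirc11-/- in both treatments, at -0.29 ± 0.083 without challenge and -0.49 ± 0.08 after it.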
